A study of Mus musculus with 63 samples.

Results

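The 9 genes described here, Mbp, Mobp, Cnp, Mag, Mog, Cldn11, Opalin, Ermn and Myrf, are genes of myelin and mature oligodendrocytes. They were chosen by name, and all 9 were matched among the 56980 gene identifiers of the count tables. Their transcripts were followed through 58 RNA-seq libraries of 4 populations of cells sorted from mouse cortex 5 weeks after a burn or a sham injury. The question for these genes was how much of their RNA each sorted population carried, how evenly it was spread over mice, and whether burn and sham mice differed.

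All mice were female C57BL/6J animals, 12 weeks old, and all had adeno-associated viruses injected into both primary motor cortices, one with eGFP under the CaMKII promoter (AAV5-CaMKII-eGFP) and one with mRuby2 under the mDlx enhancer. Burn mice received a full-thickness thermal burn of 7 to 8% of the body surface on the right flank, and sham mice underwent every other step. CaMKII positive (GFP) cells and CaMKII-mDlx double-positive (mRuby) cells were sorted from the motor cortex, and ACSA2-positive and CD11b-positive cells were sorted by antibody from the cortex caudal to it, so that region and population cannot be told apart between the 2 pairs of populations. Myelin debris was removed from the cell suspensions with magnetic beads before sorting, which limits what these libraries can say of myelin in the tissue. There were 4 burn and 6 sham libraries of CaMKII positive cells, 9 and 7 of double-positive cells, 9 and 8 of ACSA2-positive cells, and 8 and 7 of CD11b-positive cells, each from a single mouse, with 13346143 to 134703744 counts per library. A further 5 deposited libraries, which the study had set aside, were left out. The libraries came in 3 sequencing batches, and the CaMKII positive libraries outside batch 3 were those of 1 burn mouse (mouse 2) and 1 sham mouse (mouse 8).

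Myelin is the lipid-rich sheath that oligodendrocytes wrap around axons. Its making follows a known order: precursor cells that carry Pdgfra and Cspg4 leave the cell cycle, pass through a newly formed stage marked by Bcas1 and Enpp6, and then switch on the genes of the sheath under transcription factors such as Sox10, Olig2 and Myrf. Mbp RNA is known to be carried out into the processes of the cell and translated there, so that it is found in myelin itself as well as in cell bodies.

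The sort labels were set against defining markers of the cell types. ACSA2-positive libraries carried 35654 to 50040 CPM (counts per 1000000 counts of the library) summed over 7 astrocyte markers, and CD11b-positive libraries 19024 to 30176 CPM over 7 microglia markers. The CaMKII positive libraries held 21 to 141 CPM over 6 markers of all neurons against 13296 to 25092 CPM over the astrocyte markers and 3105 to 8844 CPM over 6 endothelial markers, and 7 inhibitory neuron markers summed to 2.98 to 21.1 CPM, with Dlx6 at 0 in all of these libraries. Their 6 excitatory neuron markers summed to 22.8 to 397 CPM, mostly Camk2a at 123 ± 107 CPM (SD, n = 10), and 2 of the 6, Camk2a and Slc17a7, were called higher than in double-positive cells and none than in ACSA2-positive cells. In the double-positive libraries the neuron markers summed to 6 to 29 CPM and the microglia markers to 15620 to 29876 CPM. Neuron markers were thus far below those of glia in both sorts with a neuronal label, and the populations are called by their sort alone.

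The promoters of 4 of the genes are shown because the genes differed in how often their RNA was found: Mag and Cnp had counts in every double-positive and every CD11b-positive library, whereas Mog and Opalin were at 0 in at least 8 libraries of each. Each sequence is the part, up to 250 bases, that lies upstream of every annotated start of the gene, from RefSeq on GRCm38.p6, 5′ to 3′ on the strand of the gene. Capitals mark CTGGNAC, with any base at N, letters that take in a motif bound by MYRF, and ACAAAG, the letters of a SOX-type motif, on either strand.
Mag, chr7:30914923-30915113, minus strand: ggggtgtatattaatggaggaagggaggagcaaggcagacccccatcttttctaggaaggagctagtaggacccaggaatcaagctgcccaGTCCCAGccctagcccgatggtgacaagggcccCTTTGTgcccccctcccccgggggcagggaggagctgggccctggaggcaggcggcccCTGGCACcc
Cnp, chr11:100574689-100574903, plus strand: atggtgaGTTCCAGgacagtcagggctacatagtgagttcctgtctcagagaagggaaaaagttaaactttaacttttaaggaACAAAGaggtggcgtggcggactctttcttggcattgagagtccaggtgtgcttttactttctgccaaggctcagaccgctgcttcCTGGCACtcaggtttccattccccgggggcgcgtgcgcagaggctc
Mog, chr17:37023399-37023648, minus strand: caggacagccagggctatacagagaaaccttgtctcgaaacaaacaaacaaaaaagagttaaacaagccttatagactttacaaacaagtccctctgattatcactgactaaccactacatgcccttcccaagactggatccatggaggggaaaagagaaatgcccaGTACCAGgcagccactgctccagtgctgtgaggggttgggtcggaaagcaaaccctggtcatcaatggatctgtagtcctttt
Opalin, chr19:41077114-41077363, minus strand: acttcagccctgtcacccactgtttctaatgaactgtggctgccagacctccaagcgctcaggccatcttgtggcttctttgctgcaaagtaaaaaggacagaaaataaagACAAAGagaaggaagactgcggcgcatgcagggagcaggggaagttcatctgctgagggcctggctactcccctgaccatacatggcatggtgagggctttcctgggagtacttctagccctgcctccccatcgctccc
RefSeq windows were matched for 7 of the 9 genes, without Mbp and Myrf. In the 250 bases before the RefSeq start, CTGGNAC was present in 3 of the 7 (Mag and Cnp with 2 matches each and Mog with 1), against 16.1% of 32851 mouse promoter windows of that length. ACAAAG was present in 4 of the 7 (Mag, Cnp and Opalin with 1 match each and Mobp with 6), against 16.5% of the windows. The promoters of Cldn11 and Ermn held neither run of letters. Mag and Cnp held both runs of letters and Mog and Opalin 1 each, and matches of this kind are letters only, not bound sites.

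In CaMKII positive cells, every one of the 9 genes had counts in all 10 libraries, and 8 of them had their highest mean level there. Mbp, the myelin basic protein that holds the cytoplasmic faces of the sheath together and whose locus also gives golli transcripts made outside myelin, was at 126, 137, 227 and 333 CPM in burn mice 2, 20, 22 and 24. In sham mice 8, 15, 16, 17, 18 and 19 it was at 1800, 337, 41.9, 261, 45.6 and 91.7 CPM. Mouse 8 stood above all others, and without it the libraries spanned 41.9 to 337 CPM with burn and sham values interleaved. The mean was 340 ± 524 CPM (SD, n = 10).

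Mobp, another small basic protein of the sheath, was at 25.7, 28.0, 56.0 and 67.1 CPM in the same burn mice and at 484, 76.7, 13.9, 69.4, 13.9 and 26.3 CPM in the sham mice. Its order over mice was close to that of Mbp: the ratio of Mbp to Mobp stayed between 3.02 and 4.97 in the 10 libraries, with a mean of 4.05 ± 0.713. Of the 36 pairs of the 9 genes, this pair had the steadiest log2 ratio in CaMKII positive cells (SD 0.26), and Mbp with Opalin the least steady (SD 1.5). The ratio of Mbp to Mag ran from 1.80 to 29.7 and that of Mbp to Mog from 7.70 to 128, and in both mouse 24 was the highest.

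Cnp, a cyclic nucleotide phosphodiesterase that keeps cytoplasmic channels open in the sheath, was the most even of the 9 genes across the CaMKII positive libraries. It was at 87.7, 128, 134 and 104 CPM in burn mice and at 271, 210, 93.9, 132, 82.5 and 121 CPM in sham mice. Mouse 8 was again the highest, and the other 9 libraries lay between 82.5 and 210 CPM.

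The surface proteins were lower in CPM. Mag, the adhesion protein of the axon-facing membrane, was at 16.3, 37.4, 63.7 and 11.2 CPM in burn mice and at 87.2, 80.0, 23.2, 38.1, 24.6 and 21.0 CPM in sham mice. Cldn11, the claudin of the tight junctions within myelin, was at 13.9, 42.5, 43.2 and 32.4 CPM and at 154, 57.3, 25.7, 37.5, 12.1 and 26.3 CPM. For both genes mouse 8 and mouse 15 were the highest sham mice, and the ranges of burn and sham overlapped.

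Mog, a protein of the outermost face of the sheath, ranged from 2.60 to 43.8 CPM, and Opalin, a transmembrane glycoprotein of mature oligodendrocytes, from 1.25 to 15.5 CPM. Ermn, which encodes the cytoskeletal protein ermin, ranged from 1.99 to 42.4 CPM, and Myrf, the transcription factor that switches on sheath genes, from 9.49 to 68.1 CPM. In all 4 the highest library was again that of mouse 8. Mouse 15 was among the highest 3 libraries for all 9 genes, and mouse 22 for 6 of them.

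**Figure D1:**
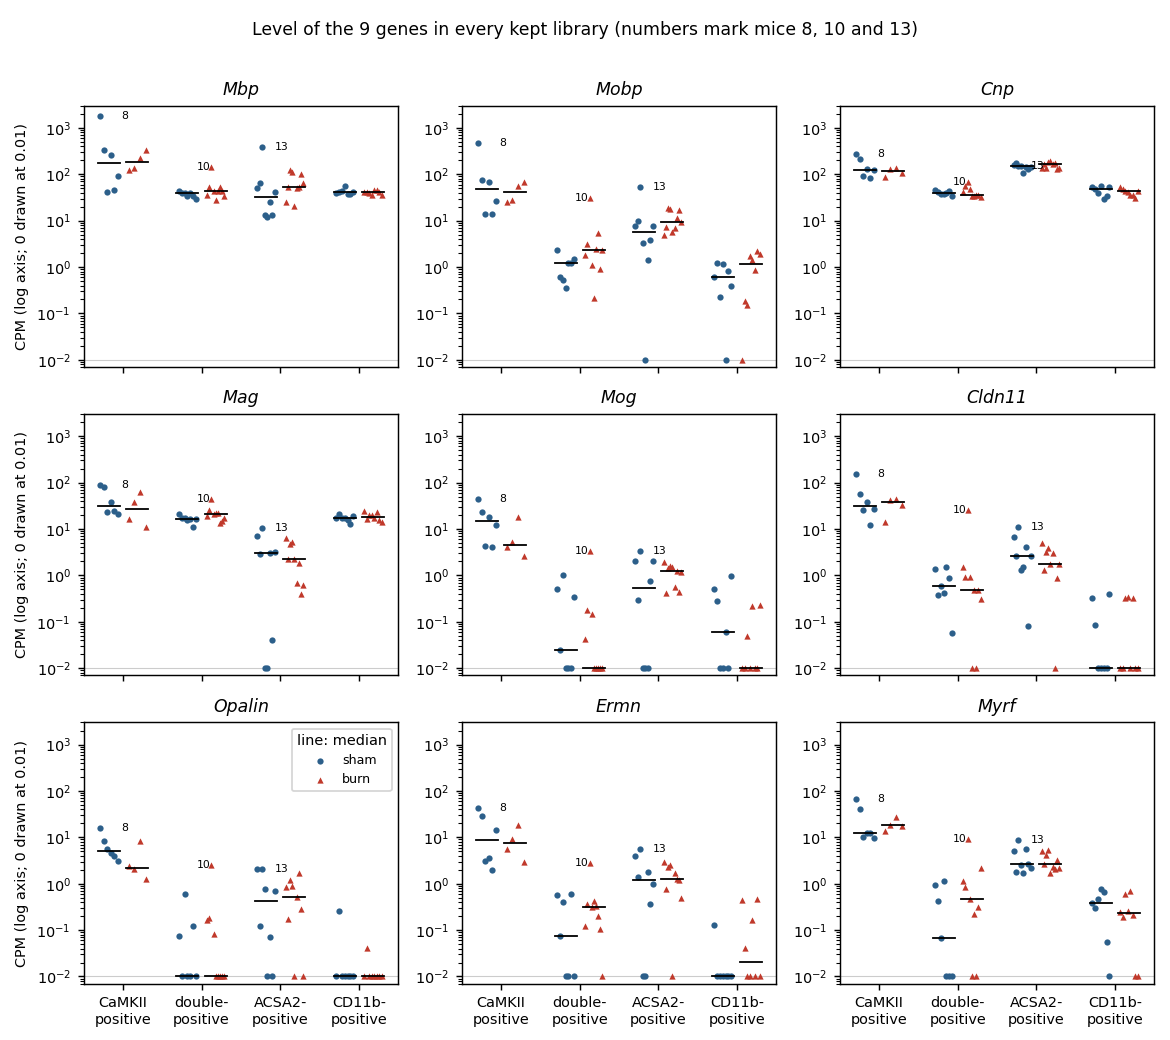
Each panel plots the level of a gene in CPM on a log axis, with 1 point per kept library (circles, sham mice; triangles, burn mice; line, group median; 0 drawn at 0.01) and the numbers 8, 10 and 13 beside the libraries of those mice in CaMKII positive, double-positive and ACSA2-positive cells. Cnp and Mbp had counts in all 58 libraries, while Opalin was at 0 in 13 of the 15 CD11b-positive ones.

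Compared between genes per kb of exon, counted over all annotated transcripts of a gene together, mean levels in CaMKII positive cells were 40.2 CPM per kb for Mbp, 37.4 for Cnp, 23.8 for Cldn11, 12.6 for Mobp, 9.89 for Mag, 7.93 for Mog, 3.60 for Ermn, 2.7 for Myrf and 1.88 for Opalin. The order depends on the length used. These exons span 8469 bases for Mbp and 6849 for Mobp, against longest transcripts of 4797 and 3286, while both lengths are 1870 for Cldn11. Neighbours in this order differed by less than their spread over libraries, and without mouse 8 it changed: Cnp was then first at 33.3 CPM per kb, ahead of Mbp at 21.0 and Cldn11 at 17.3, and Mag at 8.61 lay above Mobp at 6.11 CPM per kb. In ACSA2-positive cells Cnp, at 41.7 CPM per kb, was near its level in CaMKII positive cells. Cnp also led in double-positive and CD11b-positive cells, at 11.4 and 11.8 CPM per kb, ahead of Mbp at 5.43 and 4.92 and Mag at 4.83 and 4.42.

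The other 3 populations did not carry the 9 genes in the proportions seen in CaMKII positive cells. In double-positive cells Mbp was at 27.9 CPM in the lowest library, 53.5 in the second highest and 142 in the highest, Mag at 10.8, 25.4 and 43.4 CPM, and Cnp at 31.7, 54.9 and 68.1 CPM. The other 6 genes had means between 0.232 CPM (Opalin) and 3.53 CPM (Mobp), and without the highest library, that of mouse 10, between 0.0817 and 1.67 CPM. Mog was at 0 in 8 of the 16 libraries, Opalin in 9, Myrf in 5, Ermn in 4 and Cldn11 in 2. Mouse 10, the highest of the 16 libraries for all 9 genes, was a burn mouse of batch 1. With a count of 0, levels of up to 3 counts, or 0.0557 to 0.212 CPM by double-positive library, cannot be told from none, which covers counting error only.

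In CD11b-positive cells Mbp, Mag and Cnp were found in every library at like levels. Mbp was 41.7 ± 4.73 CPM (SD, n = 15), a coefficient of variation of 11.4%, Mag 18.0 ± 3.13 CPM and Cnp 42.9 ± 8.83 CPM. Their ranges were 36.1 to 54.9, 12.9 to 24.0 and 28.9 to 55.8 CPM, with sham mouse 16 above the others in Mbp. The remaining 6 genes had means between 0.0196 CPM (Opalin) and 0.858 CPM (Mobp). Opalin was at 0 in 13 of the 15 libraries, with 12 and 2 counts in the other two, Ermn was at 0 in 10, Cldn11 in 9, Mog in 8, Myrf in 3 and Mobp in 2.

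ACSA2-positive cells differed from both in Cnp and Mag. Cnp was at 152 ± 22.3 CPM (SD, n = 17), from 105 to 189 CPM, with a coefficient of variation of 14.7%. Mag was at 3.03 ± 2.97 CPM and at 0 in 2 libraries. Mbp, at 71.5 ± 88.3 CPM, ran from 12.3 CPM through a second highest of 126 CPM to 386 CPM in mouse 13, a sham mouse of batch 2, and Mobp ran from 0 through 19.0 to 52.2 CPM in the same mouse. Mouse 13 was the highest library for 7 of the 9 genes, but not for Cnp, at 153 CPM there. The exons of Cnp overlap those of Dnajc7 on the opposite strand over 4.23% of their bases, those of Ermn overlap Galnt5 over 6.52%, and those of Mobp overlap Gm38642 on the same strand over 1.15% (GENCODE M21). The strand setting of the counting is not given in the sources used here, so reads there cannot be told apart.

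**Figure D2:**
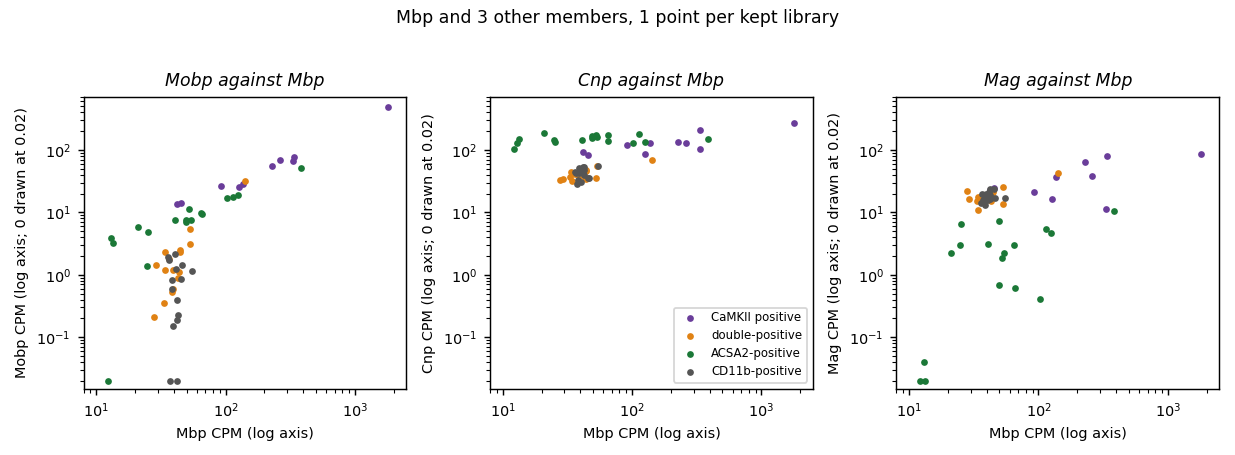
The 3 panels plot the CPM of Mobp, Cnp and Mag (vertical, log axis, 0 drawn at 0.02) against the CPM of Mbp (horizontal, log axis), with 1 point per kept library and colours for the 4 populations. Mobp followed Mbp in CaMKII positive cells, whereas Cnp in ACSA2-positive cells stayed between 105 and 189 CPM while Mbp ran from 12.3 to 386 CPM.

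The summed CPM of the 9 genes was 201 to 2965 in CaMKII positive cells (median 490), 121 to 633 in ACSA2-positive cells (median 232), 81.4 to 328 in double-positive cells (median 98.8) and 82.9 to 130 in CD11b-positive cells (median 103). Mbp made up 38.7 ± 13.8% of that sum in CaMKII positive cells, 39.5 ± 3.93% in double-positive cells and 40.2 ± 4.03% in CD11b-positive cells, but 23.6 ± 14.3% in ACSA2-positive cells, where Cnp made up 67.7 ± 16.7%. The share of Mag was 17.8 ± 3.51% in double-positive and 17.3 ± 2.38% in CD11b-positive cells, against 7.53 ± 3.41% in CaMKII positive and 1.12 ± 1.01% in ACSA2-positive cells. Mobp made up 9.52% of the sum on average in CaMKII positive cells and 0.849% in CD11b-positive cells. The ratio of Mbp to Mag was 2.33 ± 0.649 in double-positive and 2.37 ± 0.423 in CD11b-positive cells.

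**Figure D3:**
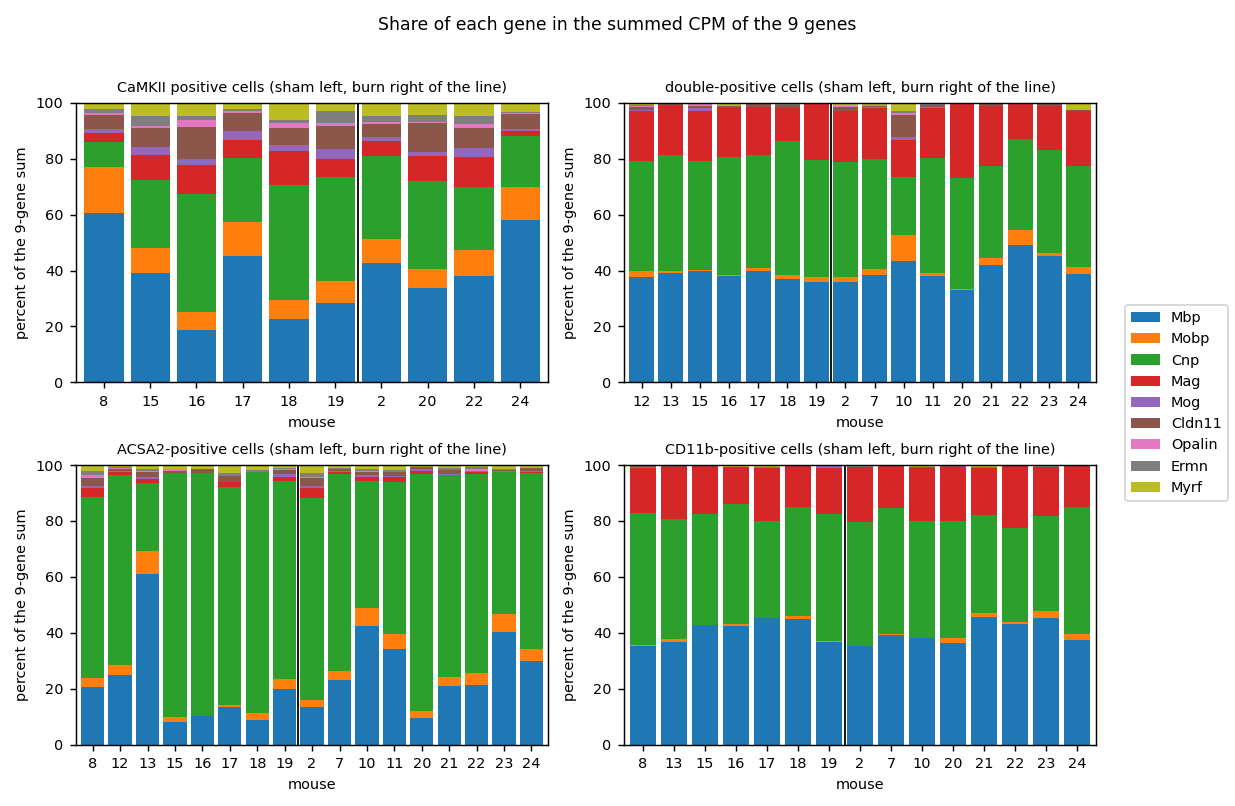
Stacked bars give the percent of each gene in the summed CPM of the 9 genes for every kept library, by mouse, with sham mice left and burn mice right of the line in each of the 4 populations. Mbp, Cnp and Mag fill most of the double-positive and CD11b-positive bars, Cnp most of the ACSA2-positive bars, and the bar of mouse 10 among the double-positive ones holds all 9 genes in visible amounts.

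Differences between populations were tested in one edgeR fit over the 58 libraries, with treatment and sequencing batch as covariates. Genes were called where the adjusted p was 0.05 or less and the log2 fold change (log2FC) was 1 or more in size. In sorted bulk samples, more cells of a type and more RNA per cell cannot be told apart. Against double-positive cells, all 9 genes were called higher in CaMKII positive cells, where 27.7% of the 33150 genes tested were called higher. Mbp was higher by a log2FC of 2.76 ± 0.38 (SE, adjusted p = 5.29e-09), Mog by 5.40 ± 0.90 (adjusted p = 6.07e-07), Cnp by 1.62 ± 0.13 (adjusted p = 3.83e-16) and Mag by 1.09 ± 0.38 (adjusted p = 0.0107). The other 5 genes had log2FC from 4.78 (Myrf) to 5.45 (Ermn). The call of Mag was lost with the mouse as a block, at a log2FC of 0.90 and an adjusted p of 0.0699, and its log2FC was 0.93 without mouse 15 and 0.92 without mouse 22. Over its alternatives the adjusted p ran from 0.00455 to 0.0699. By range, only Cnp and Myrf were higher in every CaMKII positive library than in every double-positive one, a pattern that 11.3% of genes showed.

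Against ACSA2-positive cells, 8 of the 9 genes were called higher in CaMKII positive cells, with 14.1% of all genes called higher. Mag had the largest difference together with Cldn11, at log2FC of 4.02 ± 0.40 (adjusted p = 1.87e-12) and 4.02. Mbp differed by 2.32 ± 0.39 (adjusted p = 2.10e-06), and Mog, Mobp, Opalin, Ermn and Myrf by 2.63 to 3.36. Cnp was the exception, with a log2FC of −0.33 ± 0.13 (adjusted p = 0.0515, and from 0.0146 to 0.483 over its alternatives, none of which gave a call). Mag, Cldn11 and Myrf were higher in every CaMKII positive library than in every ACSA2-positive library, against 4.56% of all genes.

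Against CD11b-positive cells, all 9 genes were called higher in CaMKII positive cells, with 29.6% of all genes called higher. The differences were widest for the 6 genes with the lowest levels in CD11b-positive cells: Cldn11 at a log2FC of 8.68 ± 0.80, Opalin at 8.31 ± 1.05, Ermn at 7.49, Mobp at 6.43, Mog at 6.2 and Myrf at 6.11. The value of Opalin rested on the 2 CD11b-positive libraries that had any counts of it. Mbp differed by 2.72, Cnp by 1.56 and Mag by 1.12 ± 0.37 (adjusted p = 0.00845), but with the mouse as a block Mag fell short of the fold threshold, at 0.97 (adjusted p = 0.0436, and from 0.00369 to 0.0518 over its alternatives), as it did without mouse 15, at 0.96. The call of Mag was lost too with the mice of batch 3 alone, at 0.998 (adjusted p = 0.0518). For 7 genes, all but Mbp and Mag, the ranges did not overlap, as for 12.2% of all genes in that direction.

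Between double-positive and CD11b-positive cells the differences were smallest for the 3 genes that made up most of the sum. The log2FC of double-positive over CD11b-positive cells was −0.04 ± 0.33 for Mbp, 0.03 ± 0.34 for Mag and −0.06 ± 0.12 for Cnp, and none was called. Cldn11 (3.52 ± 0.73, adjusted p = 0.000458) and Opalin (3.03 ± 0.94, adjusted p = 0.0255) were called higher, 2 of the 9 genes against 6.37% of all genes. Both genes were highest in mouse 10 among the double-positive libraries. Without the libraries of CaMKII positive mouse 8, double-positive mouse 10 and ACSA2-positive mouse 13, a choice made after seeing the data, Cldn11 had a log2FC of 2.38 (adjusted p = 0.00465) and Opalin one of 2.01 (adjusted p = 0.125). The call of Opalin was also lost without mouse 2, 8, 10 or 15, with log2FC of 2.75, 2.79, 1.89 and 2.38, and Ermn was called without mouse 23 (2.93), with DESeq2 (2.07, adjusted p = 0.0459) and with all deposited libraries (2.05, adjusted p = 0.0437), its adjusted p running from 0.00876 to 0.344 over alternatives. With the mice of batch 3 alone, none of the 9 genes was called, at a log2FC of 1.97 for Cldn11 and 3.41 for Opalin, the latter no smaller than with all mice, and over all alternatives the adjusted p ran from 8.19e-05 to 0.133 for Cldn11 and from 0.000501 to 0.167 for Opalin. The ranges of all 9 genes overlapped, while 0.208% of all genes were higher and 0.0332% lower without overlap.

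Mag and Cnp went opposite ways between ACSA2-positive cells and each of double-positive and CD11b-positive cells. Mag was higher in double-positive than in ACSA2-positive cells by a log2FC of 2.92 ± 0.35 (adjusted p = 1.25e-10), and lower in ACSA2-positive than in CD11b-positive cells by −2.90 ± 0.36 (adjusted p = 3.50e-10). Cnp was lower in double-positive than in ACSA2-positive cells, at −1.95 ± 0.12, and higher in ACSA2-positive than in CD11b-positive cells, at 1.89 ± 0.12. For both genes no library of the ACSA2-positive cells lay within the range of the double-positive or CD11b-positive cells, where 10.9% to 12.5% of all genes did likewise per direction. Myrf was also higher in every ACSA2-positive than in every CD11b-positive library.

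In all, 1 gene (Mag) was called higher and 6 lower in double-positive than in ACSA2-positive cells, against 23.3% and 29.1% of all genes. The 6 were Cnp, Mog (−2.04), Mobp (−1.90), Opalin (−2.01), Ermn (−2.12) and Myrf (−2.15). Mbp (−0.44) and Cldn11 (−1.14, adjusted p = 0.0727) were not called, though Cldn11 was with the mouse as a block (−1.43, adjusted p = 0.0259) and without the 3 libraries named above (−1.89, adjusted p = 0.000810), within a range of 0.000228 to 0.195 over its alternatives. It was called too without mouse 2, 7 or 10, at −1.30, −1.28 and −2.07, and with the mice of batch 3 alone, at −1.83, while Opalin was not called without mouse 22 (−1.47) and Ermn not with batch 3 alone (−1.86). In ACSA2-positive cells 7 genes were called higher than in CD11b-positive cells and 1, Mag, lower, against 32.1% and 21.7% of all genes. Cldn11 (4.65), Opalin (5.05) and Ermn (4.15) differed most, and Mbp (0.40, adjusted p = 0.299) was not called.

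**Figure D4:**
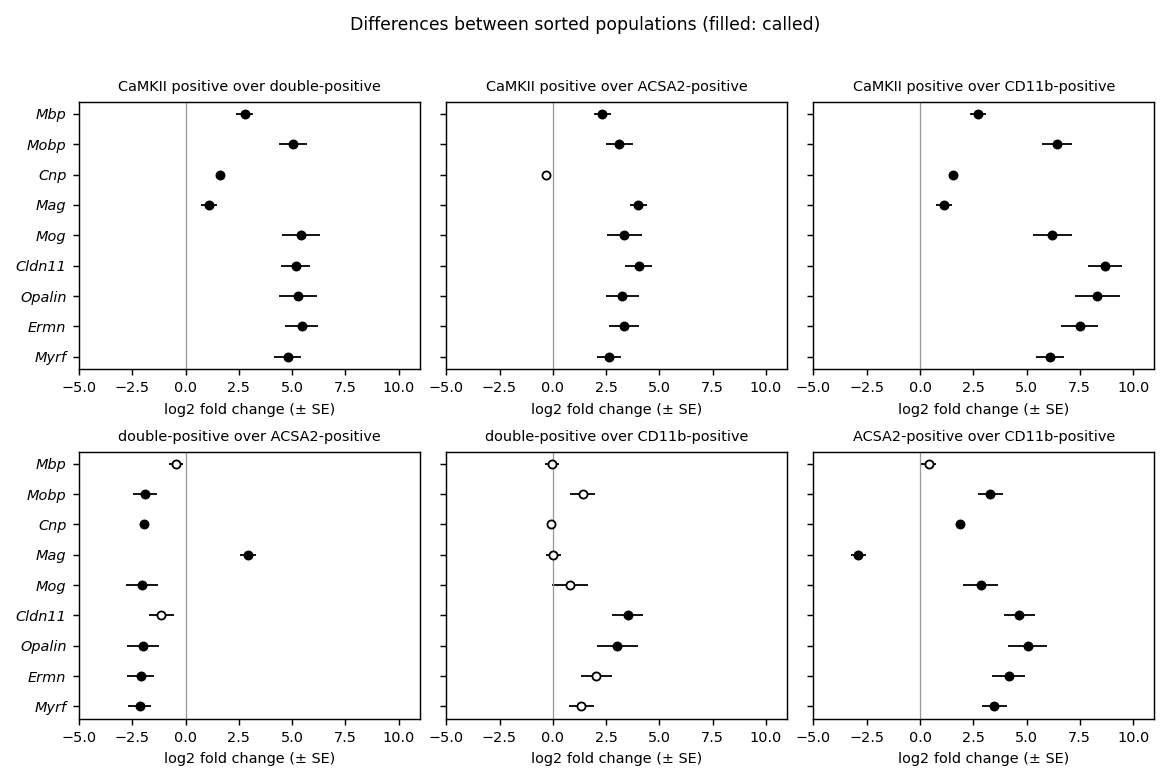
Points give the log2 fold change of each of the 9 genes between 2 sorted populations (error bars, SE; filled, called; open, not called) for the 6 pairs. All 9 points are filled and above 0 for CaMKII positive over double-positive and over CD11b-positive cells, and Mag alone is above 0 for double-positive over ACSA2-positive cells.

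A single library stood apart in each of 3 populations, and each was the library of a different mouse. Mouse 8 had 1800 CPM of Mbp in CaMKII positive cells, but 49.4 CPM in its ACSA2-positive and 38.8 CPM in its CD11b-positive library. Mouse 10 had 142 CPM in double-positive cells, 126 CPM in ACSA2-positive cells, the second highest there, and 39.0 CPM in CD11b-positive cells. Mouse 13 had 386 CPM in ACSA2-positive cells, 39.0 CPM in double-positive and 41.8 CPM in CD11b-positive cells. Among the kept libraries, high Mbp was thus shared within a mouse in mouse 10 alone of these 3. There it was shared with the ACSA2-positive library and not the CD11b-positive one. Sharing between the 2 motor cortex sorts could not be seen in any of the 3 mice. Mice 10 and 13 had no CaMKII positive library, and no kept library held double-positive cells of mouse 8. The CD11b-positive libraries say little of sharing, since Mbp hardly varied among them (41.7 ± 4.73 CPM, SD).

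Other markers moved with these libraries. The ACSA2-positive library of mouse 13 also had the highest sum of 6 excitatory neuron markers, 1491 CPM against 244 CPM in the next library, and of 6 markers of all neurons, 205 against 87.3 CPM. The double-positive library of mouse 10 also had the highest endothelial markers (567 against 276 CPM), oligodendrocyte precursor markers (96.1 against 27.4 CPM) and oligodendrocyte lineage transcription factors (60 against 20.6 CPM). The CaMKII positive library of mouse 8 had the highest sum of 25 other myelin genes (3380 against 2402 CPM) but the lowest sum of 7 lineage transcription factors (186 CPM). The part of these in the levels of the 9 genes was not tested. Without the 3 libraries, the number of the 9 genes called stayed at 9, 8 and 9 in the contrasts with CaMKII positive cells, and Mbp was still higher there, by log2FC of 2.26, 1.91 and 2.10.

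Sequencing batch moved with some of the 9 genes. All 9 had a fitted log2FC below 0 in batch 3 against batches 1 and 2 in CaMKII positive, double-positive and ACSA2-positive cells, with medians of −1.10, −1.49 and −1.57 against −0.06, −0.04 and −0.03 over all genes. In CD11b-positive cells 7 of the 9 lay below 0, with a median of −0.17 against 0.09 over all genes. The CaMKII positive cells had only 2 libraries in batches 1 and 2. With 1 mouse left out, the highest log2FC there was above 0 for all 9 genes, from 0.48 (Cnp) to 1.51 (Cldn11). Over its alternatives the log2FC of Mbp there ran from −3.55 to 0.89. The calls were of Mbp, lower in batch 3 in ACSA2-positive cells by a log2FC of −1.75 ± 0.40 (adjusted p = 0.0227), and of Cldn11, lower in double-positive cells by −2.92 ± 0.77 (adjusted p = 0.0286). These were 1 of 9 genes in each population, where 0.39% and 0.966% of all genes were called lower. Without mouse 13 the difference of Mbp was −1.01 (adjusted p = 0.163), and over its alternatives the adjusted p ran from 0.00497 to 0.163. For Cldn11 it ran from 0.0135 to 0.415, and the call was lost without any one of mice 10, 11, 12, 20 and 24, with log2FC of −1.49, −2.72, −2.84, −2.67 and −2.92. Mog was called as well without mouse 15, at −4.70. Markers of other cell types moved with the same contrasts. In ACSA2-positive cells 2 of 6 excitatory neuron markers (Slc17a7 and Camk2a) and 1 of 6 markers of all neurons (Nefl) were called lower in batch 3, and Csf1r, of 7 microglia markers, and Acta2, of 5 mural markers, higher. In double-positive cells 4 of 6 endothelial markers and 1 of 5 mural markers (Rgs5) were called lower and 1 of 6 markers of all neurons (Snap25) higher. Their part in the batch differences was not tested. Cnp was lower in batch 3 of the double-positive cells by −0.47 ± 0.09 (adjusted p = 0.00606), short of the fold threshold.

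In CD11b-positive cells none of the 9 genes was called between batches by edgeR (0.399% of all genes were). In CaMKII positive cells none was either, with 0 of all genes called, 1509 (5.37%) with an unadjusted p under 0.05, and 118 called by DESeq2, among which was none of the 9. There Mobp had the smallest p of the 9, at a log2FC of −2.42 ± 0.80 (unadjusted p = 0.00937, adjusted p = 0.778), and Mbp was at −2.37 ± 0.84 (adjusted p = 0.882), with mouse 8 as 1 of the 2 libraries outside batch 3.

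Burn and sham mice were compared within each population with batch as a covariate. None of the 9 genes was called in any of the 4 populations, and all 9 had overlapping ranges in each, where 0.37%, 0%, 0.0143% and 0.0153% of all genes did not overlap. edgeR called 0 of all genes in each population, while 3.9% of genes in CaMKII positive, 7.01% in double-positive, 10.7% in ACSA2-positive and 7.81% in CD11b-positive cells had an unadjusted p under 0.05. DESeq2 called 3, 2, 27 and 80 genes, none of them among the 9. Of the 9 genes, an unadjusted p under 0.05 was reached by 1 in double-positive and 1 in ACSA2-positive cells and by none in the other two populations.

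In CaMKII positive cells, where the levels are given above for every mouse, all 9 log2FC of burn over sham were below 0, with a median of −0.37 against 0.02 over all genes. These directions rested on few mice, and without one mouse 6 of them turned above 0. Without mouse 8 they reached 0.59 for Mbp, 0.34 for Mobp, 0.32 for Cldn11, 0.32 for Myrf and 0.0039 for Mag, and nearly the same without mouse 2. Mice 2 and 8 were the only pair outside batch 3, so either fit leaves burn against sham to the mice of batch 3. Ermn reached 0.12 without mouse 15. Mbp differed by −0.05 ± 0.74, Cnp by −0.37 ± 0.29, Opalin by −0.86 ± 0.65 and Mog by −1.06 ± 0.69 (adjusted p = 1.00 for each). The SE of Mbp was far wider than the difference, and burn mice lay inside the range of the sham mice for it. The design there had 4 burn mice, and its batch outside batch 3 held 1 mouse of each kind.

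In double-positive cells Mbp was at 27.9, 43.8 and 142 CPM in burn mice (lowest, median and highest of 9) and at 29.2, 38.8 and 44.2 CPM in sham mice (of 7). Apart from mouse 10 the burn mice were close to the sham mice, and the log2FC was 0.19 ± 0.21 (adjusted p = 0.979). Mog had a log2FC of −3.54 ± 1.52 (unadjusted p = 0.0301, adjusted p = 0.708), although its mean was 0.422 CPM in burn and 0.267 CPM in sham mice, and over its alternatives the log2FC ran from −5.74 to 0.68, the last with no batch term. The highest of all, mouse 10 at 3.43 CPM, was in batch 1, where no sham mouse was kept, and the median was 0 in burn and 0.025 CPM in sham mice.

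In ACSA2-positive cells Mbp was at 21.1, 54.0 and 126 CPM in burn mice (lowest, median and highest of 9) and at 12.3, 32.9 and 386 CPM in sham mice (of 8). The sham mice held both the lowest and the highest library. The log2FC was 0.90 ± 0.43 (unadjusted p = 0.0460, adjusted p = 0.460), and Mobp had a log2FC of 1.01 ± 0.56 (adjusted p = 0.536). Both turned below 0 with no batch term, at −0.26 for Mbp and −0.06 for Mobp. Cnp was at 129, 163 and 189 CPM in burn mice and at 105, 147 and 177 CPM in sham mice, and its log2FC was 0.13 ± 0.11 (adjusted p = 0.769).

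In CD11b-positive cells Mbp was at 36.1, 41.3 and 46.2 CPM in burn mice (lowest, median and highest of 8) and at 37.6, 41.8 and 54.9 CPM in sham mice (of 7), a log2FC of −0.03 ± 0.10. Mag was at 0.16 ± 0.14 and Cnp at −0.14 ± 0.14, and for Mbp and Mag these SE were the smallest of the 4 populations. Ermn, at 0 in most libraries, had a log2FC of 3.04 ± 1.74 (adjusted p = 0.751). The burn effect was tested for any difference between the 4 populations in a single fit, and none of the 9 genes was called (adjusted p of at least 0.855), with 0.00905% of all genes called and 2656 with an unadjusted p under 0.05.

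**Figure D5:**
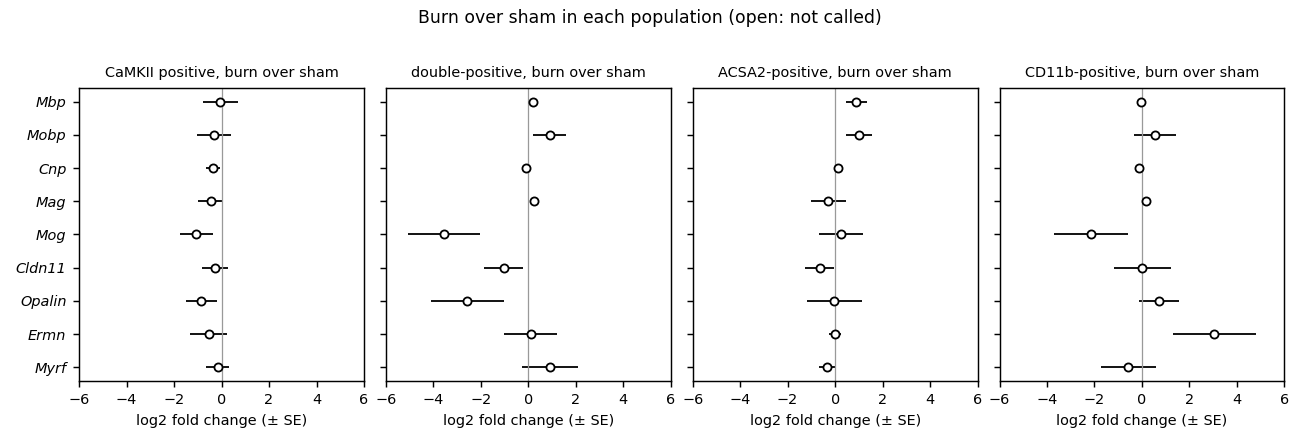
Points give the log2 fold change of burn over sham for the 9 genes in each of the 4 populations (error bars, SE), and all are open, none having been called. Within the CD11b-positive panel Mbp, Cnp and Mag have the narrowest bars, and the 9 points of CaMKII positive cells lie below 0, of which 6 turn above 0 when one mouse is left out.

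Other genes of the oligodendrocyte lineage were counted in the same fits. Of 25 other myelin and mature oligodendrocyte genes, 22 were called higher and 1 lower in CaMKII positive than in double-positive cells (median log2FC 4.70, against 5.03 for the 9 genes and 0.14 for all genes). Against ACSA2-positive cells 17 were higher and 2 lower (median 2.46), and against CD11b-positive cells 24 were higher and 1 lower (median 5.78). Ndrg1, which is expressed in mature oligodendrocytes, was higher in CaMKII positive cells by log2FC of 5.47, 2.90 and 6.29. Trf, which encodes transferrin, went the other way against double-positive (−3.11) and CD11b-positive cells (−3.45), and Car2, a carbonic anhydrase, was lower than in ACSA2-positive cells (−1.07).

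RNA of genes that mark earlier stages of the lineage was measured as well. All 6 precursor markers, among them Pdgfra, the receptor of precursor cells, were called higher in CaMKII positive cells than in double-positive, ACSA2-positive and CD11b-positive cells, with medians of 4.05, 3.30 and 6.02, where 27.7%, 14.1% and 29.6% of all genes were called higher. Of 7 lineage transcription factors, all were higher than in double-positive and CD11b-positive cells, but only Sox10 and Zfp488 were called higher than in ACSA2-positive cells, where Olig1 differed by 0.27 ± 0.37. Of 6 genes of newly formed oligodendrocytes, 4, 3 and 4 were called higher against the same populations. The oligodendrocyte lineage was not alone in this: against double-positive cells all 7 astrocyte, 6 endothelial and 5 mural markers were also called higher in CaMKII positive cells, and against ACSA2-positive cells all 7 microglia, 6 endothelial and 5 border macrophage markers, with medians of 4.42, 2.94 and 4.48, while all 7 astrocyte markers were lower. Against CD11b-positive cells all astrocyte, endothelial and mural markers were higher. By mean CPM, the 4 highest microglia and 4 highest border macrophage markers were lower in CaMKII positive than in double-positive or CD11b-positive cells. Csf1r was at 286 CPM in CaMKII positive, 5777 in double-positive and 7509 in CD11b-positive cells. The part of these in the differences of the 9 genes was not tested. Between burn and sham mice, 0 genes of the 4 oligodendrocyte lineage lists were called in any population by edgeR. As edgeR called 0 of all genes in each, this count says nothing of these lists in particular.

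Across the 58 libraries, the 10 genes whose log2 CPM was most like the mean of the 9 included Ugt8a (Pearson r = 0.906), Map6d1 (0.894), Prickle1 (0.888), Fa2h (0.885), Abcc4, Micall1, Abhd2, Pdxk and Rapgef4 (0.875), among 17266 genes. Of the 9 themselves, each of which is part of that mean, Opalin (0.931), Ermn (0.919) and Mog (0.916) were most like that mean, and Cnp (0.706) and Mag (0.257) least. Within the 10 CaMKII positive libraries, Shtn1 (0.942), Tubb4a, Trim59, Tmem151a, Fa2h, Sytl2, Tspan2 and Tmem63a (0.908) were among the 10 most like it. The weight on these values of mouse 8, the highest library for all 9 genes, was not tested. The libraries share population, batch and depth, so that these correlations describe them only.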

How the data were processed

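Counts per Ensembl gene, deposited by the authors as 1 table per population, had been made from stranded total RNA libraries after read trimming with fastp, STAR alignment to GRCm39 (mm10 is also named in the submitters' processing notes) and counting with GenomicAlignments. The strand setting of the counting is not given in the sources used here. A second set of deposited tables, holding transformed log2-like values, was not used. Of 63 libraries, the 58 that the study kept entered every main comparison. The counts were tested as deposited with edgeR 4.0.16 (quasi-likelihood, TMM) in R 4.3.3, on the genes whose counts summed to 10 or more, and p-values were adjusted over all of these by Benjamini and Hochberg's method. Each SE was obtained as the size of the log2FC over the root of the F statistic. CPM used library totals, and likeness used log2 CPM with a prior count of 2 among genes with a mean of at least 1 CPM. The genes named are the 9, the 10 most like them, and at most 4 per list. A few of these are not reported here. Libraries of 1 mouse share its number, since they come from the same animal, and were paired in a fit with the mouse as a block (median correlation of deviations −0.004 to 0.050). Replicates within a group were separate mice. Alternatives were DESeq2 1.42.0, other scalings and filters, no batch term, batch 3 alone, all deposited libraries and each mouse left out. Scripts were tested on simulated data. Levels were computed in Python 3.11.15 (numpy 2.4.6, pandas 2.3.3) and drawn with matplotlib 3.10.9. The 9 genes and all lists were chosen with earlier results of these data known.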

Additional observations from a re-analysis of the deposited data

Results flagged for a closer look

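In 19 of the 72 groups of 4 to 9 libraries (a gene in one population and treatment), the highest library lay farther from its nearest neighbour than Dixon's 95% limit allows, a limit that chance passes in about 1 in 20 groups of normally distributed values, which CPM near 0 are not. Of these, 8 were the double-positive library of burn mouse 10, for Mbp (142 CPM), Mag (43.4), Mobp (31.4), Cldn11 (25.4), Myrf (9.17), Mog (3.43), Ermn (2.83) and Opalin (2.49). The CaMKII positive library of sham mouse 8 stood apart for Mbp (1800 CPM), Mobp (484) and Cldn11 (154), and that of burn mouse 22 for Opalin (8.32 CPM). The ACSA2-positive library of sham mouse 13 stood apart for Mbp (386 CPM) and Mobp (52.2). In CD11b-positive cells, sham mouse 16 stood apart for Mbp at 54.9 CPM. The remaining 4 were libraries with few counts in groups otherwise near 0: Opalin in sham mouse 15 of the double-positive cells (0.603 CPM) and in CD11b-positive burn mouse 7 (0.0417) and sham mouse 13 (0.253), and Ermn in CD11b-positive sham mouse 8 (0.128). Flags of the same library are not independent of each other.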

How the results depend on the processing

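No call of the 9 genes turned direction under any alternative run. Of 2775 values of single genes, 2744 kept their side of the threshold, 21 lost a call and 10 gained one. In the burn comparisons, 805 alternatives gave 0 calls of the 9 genes, with a smallest adjusted p of 0.424, while 73 of them had the other sign. Counts over all genes moved more. DESeq2 called 3, 2, 27 and 80 genes between burn and sham in CaMKII positive, double-positive, ACSA2-positive and CD11b-positive cells, against 0 in each by edgeR, and between batches 118 against 0 in CaMKII positive, 618 against 288 in ACSA2-positive and 424 against 104 in CD11b-positive cells. Between burn and sham, all deposited libraries gave 136 genes in double-positive cells, and no filter on low counts gave 14 there and 4 in ACSA2-positive cells. Between double-positive and CD11b-positive cells, 2647 genes became 1529 with the mouse as replicate block and 1056 with the mice of batch 3 alone, and 2 of the 9 genes became 0 with batch 3 alone and 1 without the 3 libraries that stood apart. Apart from the changes given beside the results, the block changed no call of the 9 genes. DESeq2 gave no adjusted p for Myrf between populations.

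With each mouse left out, the batch contrast called 0 to 61 genes in CaMKII positive cells (61 without mouse 2, where the lone library outside batch 3 is assumed to vary like the others), 97 to 356 in double-positive, 60 to 532 in ACSA2-positive and 54 to 217 in CD11b-positive cells. Of the 9 genes it called 0 to 2 in double-positive and 0 to 1 in ACSA2-positive cells, and 1 to 3 were called between double-positive and CD11b-positive cells. Scaling by library size alone moved the median log2FC of all genes by 0.12, 0.17 and 0.11 in the contrasts of CaMKII positive cells and changed no call of the 9 genes. The cause of these changes was not tested. Depth limits Opalin, Ermn, Mog and Cldn11 in CD11b-positive cells, where most libraries hold 0 counts of each.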

Other observations

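The 5 libraries that the study left out were read as values only. In the libraries of mouse 3, a burn mouse of batch 1, Mbp was at 111 CPM in CaMKII positive, 37.7 CPM in double-positive, 181 CPM in ACSA2-positive and 58.9 CPM in CD11b-positive cells. The CD11b-positive value lay just above the highest of the 15 kept libraries, at 54.9 CPM, and the ACSA2-positive value between the second highest and the highest of the 17 kept ones. In the double-positive library of mouse 8, which held 331215 counts, Mbp had 1 count (3.02 CPM) and the other 8 genes had 0, where 3 counts are 9.06 CPM, so that their levels cannot be read from it.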
